A study of Mus musculus with 4 samples.

Results

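Immediate early genes are switched on within minutes of strong synaptic input, before any new protein is made. Some of them encode transcription factors, and others encode proteins that act directly at synapses, in signaling or as secreted factors. The 8 genes described here, Arc, Npas4, Nptx2, Plk2, Plk3, Arl4d, Inhba and Ptgs2, were taken by their symbols from a table of 17778 genes, and all 8 were found in it. Their symbols fixed the choice and no measured value did, but earlier results of these data were known when they were chosen. Of the 8 genes, 7 are effectors, and Npas4 is a transcription factor that neurons induce selectively after calcium entry. In the cerebral cortex, genes of this kind are used as a record of recent neuronal activity, and Arc and Npas4 are among the most used.

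The tissue was the medial prefrontal cortex (mPFC) of both sides, whose mRNA was sequenced, of male C57BL/6 mice (C57BL/6J in the methods of the study) that entered the experiment as juveniles. The CUMS group (2 libraries) had lived under chronic unpredictable mild stress, a changing schedule of mild stressors such as isolation, restraint and disturbed light, and held only mice that then showed depression-like behavior in all tests applied. The control group (2 libraries) lived without these stressors. Tissue was taken 24 h after the behavior tests, and the number of mice behind each library is not given in the sources used here.

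The table held 1 mean per gene and group, in RPKM (read counts divided by gene length and by sequencing depth), and no value for a single library. Differences between the groups therefore had no replicate check, and no p-value could be given. The counting error was estimated instead, from a depth of about 7385524 fragments in a control library and 7440476 in a CUMS library, which was itself read from the steps between low values. This depth is lower than the mapped reads that the study describes would give, for a reason that is not known, so that the fragment numbers are estimates and a greater depth would narrow the intervals. Intervals are exact 95% intervals for this counting error alone and do not cover the spread between mice. In bulk tissue, fewer cells of a type and less RNA per cell cannot be told apart.

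The control regions of some of these genes share a sequence. The cAMP response element (CRE), with the letters TGACGTCA, is bound by CREB, the factor that calcium signals activate in neurons. RefSeq promoter windows of 250 bases before to 50 bases after the start site (build GRCm38.p6) were at hand for 6 genes, all but Arc and Nptx2. The whole CRE was present in 2 of the 6 windows, those of Arl4d and Plk2, and in 1.79% of 32851 mouse promoter windows. Its shorter core, TGACG on either strand, which the whole CRE contains, was present in 5 of 6 windows against 20.8% of all windows. The stretches below show the whole CRE of Plk2 and Arl4d, the cores of Npas4 on opposite strands and the separate cores of Plk3. Each runs 5′ to 3′ on the strand of the gene with the motif in capitals.
Plk2, chr13:110394956-110395015, plus strand: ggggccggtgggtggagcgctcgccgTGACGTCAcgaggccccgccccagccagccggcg
Arl4d, chr11:101665481-101665540, plus strand: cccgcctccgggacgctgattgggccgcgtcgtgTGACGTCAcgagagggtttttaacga
Npas4, chr19:4990129-4990158, minus strand: ccgttcgaCGTCAcgggaTGACGtcggaag
Plk3, chr4:117134012-117134105, minus strand: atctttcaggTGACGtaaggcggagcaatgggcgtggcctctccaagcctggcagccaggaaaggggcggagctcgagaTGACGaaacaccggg

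The CRE began 62 bases upstream of the start site in Plk2 and 26 bases upstream in Arl4d. In Npas4 the cores began 179 and 169 bases upstream of the RefSeq start site, a stretch that a longer GENCODE M21 transcript of the gene includes. In Plk3 the cores began 132 and 63 bases upstream. In Ptgs2 a core lay inside the transcript, 13 bases after the start site, and overlapped an E-box (CACGTG) that begins at base 16, a motif that 7.15% of all windows held. In Inhba a MEF2 box and a TATA box (TATAAA) overlapped, the MEF2 box beginning 96 bases upstream. These motifs were held by 3.19% and 13.6% of all windows. The AP-1 motif (TGANTCA) and the CArG box were in 0 of the 6 windows and in 7.81% and 1.63% of all windows. A match describes the letters of a window and is not a measured binding site.

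A second feature of many induced genes is the AU-rich element of the 3′ UTR, which shortens the life of a transcript. The nonamer TTATTTATT, a strict form of this element, was found in the longest GENCODE M21 coding transcript of 4 of the 8 genes, and in 8.21% of 12937 expressed genes with such a transcript. The sites below are the nonamers nearest to the coding sequence, in capitals, with 10 bases on each side, in the 3′ UTR and on the strand of the gene (GRCm38).
Plk2, chr13:110400734-110400762, plus strand: aataaactttTTATTTATTacagccccaa
Plk3, chr4:117128718-117128746, minus strand: tggaccacttTTATTTATTaacagacatt
Inhba, chr13:16029046-16029074, plus strand: cttatatttaTTATTTATTggaatcaatc
Ptgs2, chr1:150105790-150105818, plus strand: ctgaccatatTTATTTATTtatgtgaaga

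Inhba held 21 of the shorter pentamer ATTTA in a 3′ UTR of 4492 bases, a number reached by 0.758% of these genes. Ptgs2 held 14 in 2445 bases and Plk3 held 4 in 332 bases. Plk2 and Nptx2 held 2 each, Npas4 held 1, and Arc and Arl4d held 0. The median of the 8 genes was 2 pentamers, and so was the median of all 12937 genes. Per kilobase of 3′ UTR the median was 2.54 for the 8 genes and 1.29 for all genes, and 6 of the 8 lay above the latter. Plk3 had the highest density of the 8, one that 0.417% of genes reached, in the shortest 3′ UTR of the 8. Arc and Npas4, the best measured of the genes with a large difference below, were thus not among those with the nonamer.

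At the level of mRNA, the 8 genes differed widely. Arc (gene 11838, chromosome 15, 74669081 to 74672570) was the most abundant in both groups, and Inhba the least. In control the order from high to low was Arc, Plk2, Nptx2, Npas4, Arl4d, Plk3, Ptgs2 and Inhba. In CUMS, Npas4 and Arl4d changed places. Within each group the counting intervals of neighbors in this order did not overlap, but their spread between mice is unknown. The plot of levels by group shows each pair of means.

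**Figure D1:**
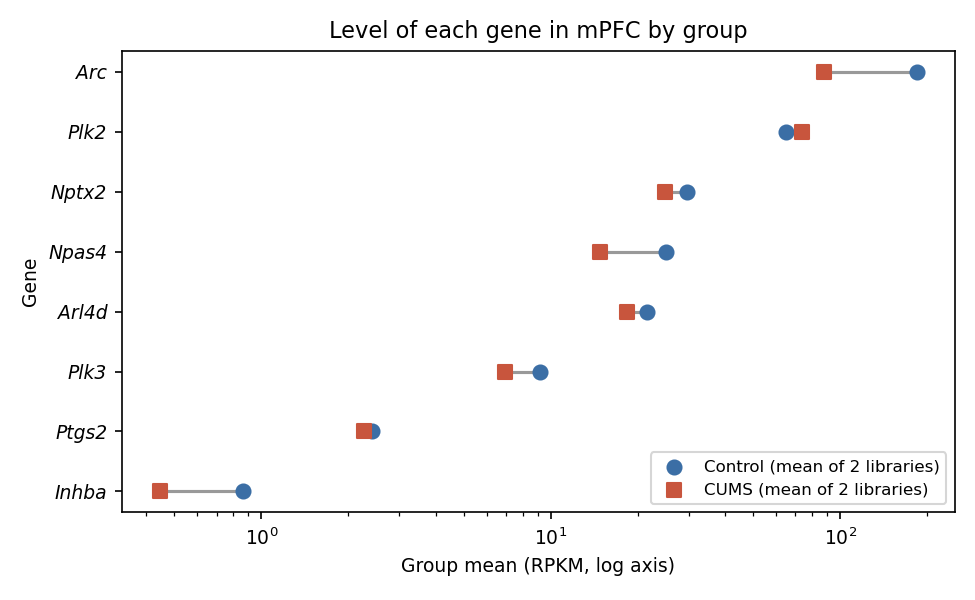
Group means of the 8 genes in RPKM on a log axis, with control as circles and CUMS as squares, each the authors' mean of 2 libraries, and a gray line joining the pair of a gene. Arc moved from 184 to 88.0 RPKM and Npas4 from 25.01 to 14.9 RPKM, whereas Plk2 was the gene with a higher CUMS mean.

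The mRNA level was lower in CUMS for 7 of the 8 genes and higher for Plk2. Of the 14257 genes that reached 0.5 RPKM in 1 group or both, 53.2% were lower. The median log2 ratio of CUMS over control was -0.32 for the 8 genes, beside -0.015 for the 14257 genes. A fold above 1.5, used here as the call, was passed by 3 genes, Arc, Npas4 and Inhba, all lower in CUMS, and 4.42% of the 14257 genes passed it in this direction (7.2% in either). Inhba reached 0.5 RPKM in the control group alone, so that its place among the 3 rests in part on that filter, and Arc and Npas4 are also in the study's own list of changed genes. None of the 8 genes passed it upward, against 2.78% of all genes, and Arc was the gene of the 8 to pass 2-fold, which 1.56% of all genes did downward. Of the 6 genes that reached 5 RPKM, 5 were lower and 2 passed the 1.5-fold call, against 52.3% lower and 1.6% past the call among all genes of that level. The counting interval lay below 0 in 5 genes (Arc, Npas4, Plk3, Nptx2 and Arl4d), against 16.8% of all genes. It lay above 0 in Plk2, against 12.5% of all genes, and held 0 in Inhba and Ptgs2.

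Arc encodes a cytoskeleton-associated protein that is made in dendrites from transported mRNA and drives the removal of AMPA receptors from the synapse. The control mean was 184 RPKM and the CUMS mean 88.0 RPKM, about 8315 and 4007 fragments over both libraries of a group. The CUMS level was 47.8% of the control level, a log2 ratio of -1.06 (interval -1.12 to -1.01). Arc ranked 337th by level among the 17778 genes in control and 863rd in CUMS. Among the 9397 genes that reached 5 RPKM, Arc had the 24th lowest ratio, and 1.28% of these genes were lower by more than 1.5-fold. Among the 770 genes that reached 100 RPKM in either group, a limit set after the values were seen, Arc had the lowest ratio. The next were Sparc at -0.70 and Hap1 at -0.67. Its first place thus belongs to this later limit, and at 5 RPKM it was the 24th lowest. The plot of all genes shows where Arc lies.

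Npas4 (gene 225872, chromosome 19, 4984353 to 5003439) encodes a transcription factor that pairs with Arnt or Arnt2 and regulates inhibitory synapses onto the neuron that expresses it. It had a mean of 25.01 RPKM in control and 14.9 RPKM in CUMS (1216 and 727 fragments), a log2 ratio of -0.75 (-0.89 to -0.62). The difference was smaller than that of Arc by 0.31 on the log2 scale (interval of Arc minus Npas4, -0.46 to -0.17). The authors used a gene length of 3292 bases, and the longest coding transcript in GENCODE M21 has 3622.

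**Figure D2:**
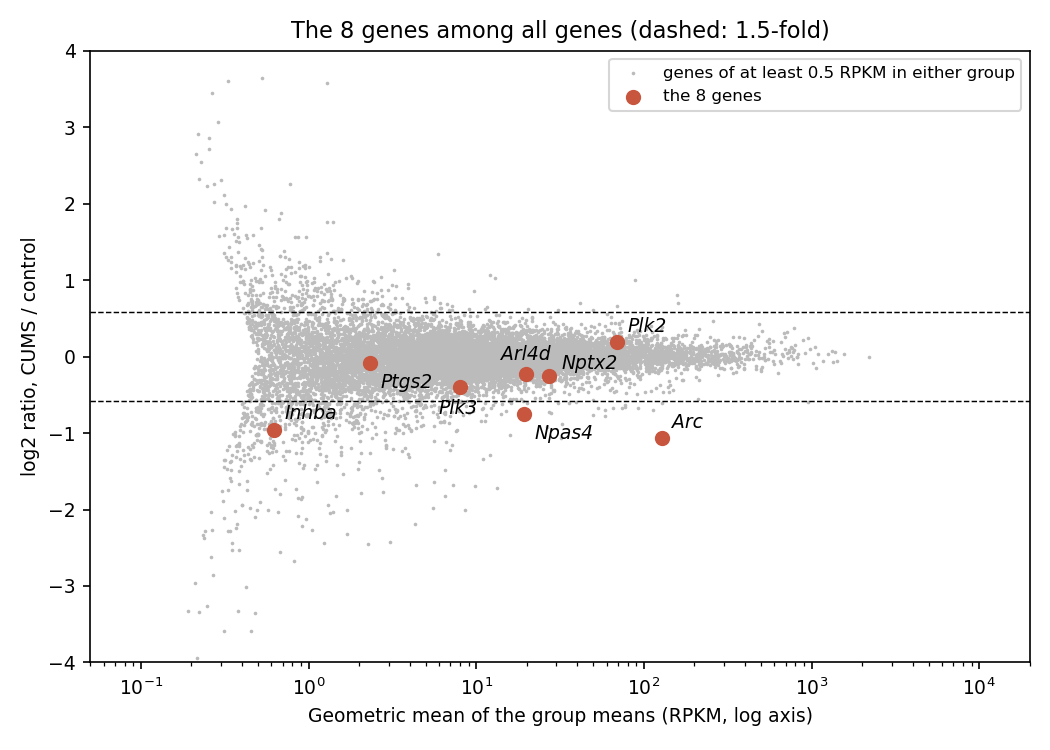
Log2 ratio of CUMS over control against the geometric mean of the group means (RPKM, log axis) for genes that reached 0.5 RPKM (gray; 25 genes lie outside the axes), with the 8 genes in red and dashed lines at a 1.5-fold difference. Arc, at a log2 ratio of -1.06, lies below the cloud of genes of its level, whereas Nptx2, Arl4d, Ptgs2 and Plk2 lie inside it.

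Nptx2 and Arl4d formed a group with small differences. Nptx2 (gene 53324, chromosome 5, 144545887 to 144557478) encodes a secreted pentraxin that gathers AMPA receptors at excitatory synapses, in particular those onto parvalbumin interneurons. It had 29.4 RPKM in control and 24.8 RPKM in CUMS, a log2 ratio of -0.25 (-0.38 to -0.12). Arl4d (gene 80981, chromosome 11, 101665541 to 101667832) encodes a small GTPase of the Arf family that recruits cytohesins to the plasma membrane. It had 21.4 RPKM in control and 18.3 RPKM in CUMS, a log2 ratio of -0.23 (-0.43 to -0.03). The 2 ratios differed by -0.02 (Nptx2 minus Arl4d, interval -0.25 to 0.22). Ratios lower than that of Nptx2 were found in 15.6% of the 14257 genes, and lower than that of Arl4d in 16.9%.

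Plk2 and Plk3 encode polo-like kinases induced by activity. Plk2 phosphorylates the spine protein SPAR (gene Sipa1l1) and so marks it for breakdown, which weakens synapses after prolonged excitation. Plk2 (gene 20620, chromosome 13, 110395044 to 110400844) had 64.8 RPKM in control and 73.8 RPKM in CUMS (2682 and 3077 fragments), a log2 ratio of 0.19 (0.11 to 0.26). Plk3 (gene 12795, chromosome 4, 117128655 to 117133963) had 9.16 RPKM in control and 6.94 RPKM in CUMS (335 and 256 fragments), a log2 ratio of -0.40 (-0.64 to -0.16). The kinases thus lay on opposite sides of 0, and their ratios differed by 0.59 (Plk2 minus Plk3, 0.34 to 0.83). The 3′ end of Plk3 overlaps Tctex1d4 on the opposite strand by 84 bases. Without stated use of strand, reads there could have been counted for either gene, and Tctex1d4 had 0.395 RPKM in control and was listed at 0.01 RPKM in CUMS.

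Inhba and Ptgs2 encode a secreted factor and an enzyme. Inhba (gene 16323, chromosome 13, 16004256 to 16031609) encodes the subunit of activin A, a growth factor of the TGF-beta family that is induced by synaptic NMDA receptors. It had 0.865 RPKM in control and 0.445 RPKM in CUMS, which rested on about 20 and 10 fragments. The log2 ratio was -0.96, with an interval from -2.27 to 0.15, so that a difference was not detectable at this depth although the ratio passed the fold. The length the authors used for Inhba, 1529 bases, is shorter than the longest coding transcript in GENCODE M21, of 6390 bases, and other annotated genes on the opposite strand overlap it by up to 11573 bases. Its level in RPKM therefore depends on the gene model. Ptgs2 (gene 19225, chromosome 1, 150100031 to 150108234) encodes cyclooxygenase, the inducible enzyme that starts prostaglandin synthesis and is made by excitatory neurons of the cortex. It had 2.41 RPKM in control and 2.27 RPKM in CUMS (148 and 140 fragments), a log2 ratio of -0.09 (-0.43 to 0.25). The interval excluded a 1.5-fold difference in either direction for Ptgs2 as far as counting error goes.

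**Figure D3:**
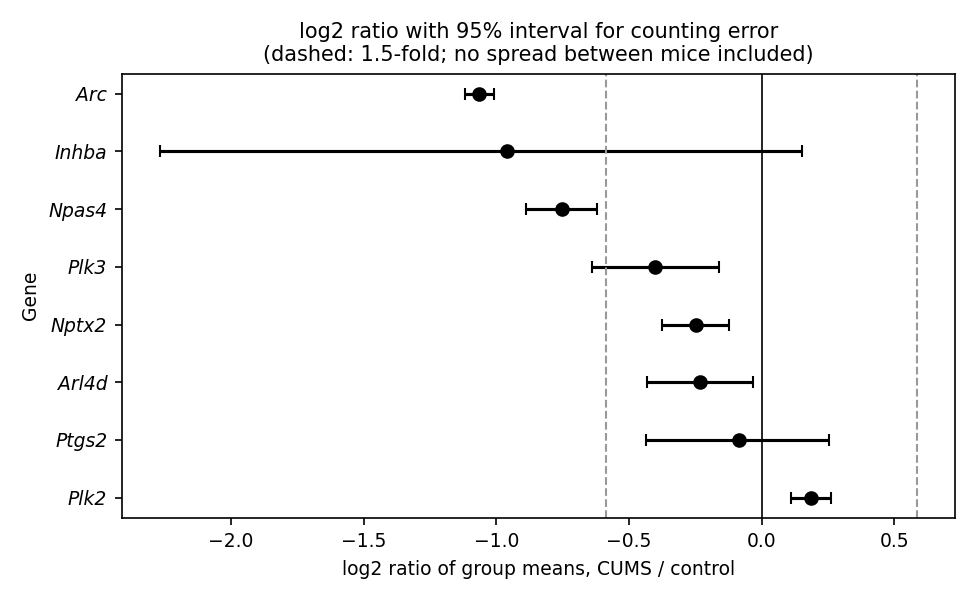
Log2 ratio of CUMS over control for each of the 8 genes (points), with the exact 95% interval for counting error (bars), and dashed lines at a 1.5-fold difference. The intervals of Arc and Npas4 lie wholly past the dashed line, that of Inhba spans from -2.27 to 0.15, and that of Plk2 lies above 0.

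The ratios were compared between the genes in all 28 pairs, and the interval of the difference excluded 0 in 15 pairs. The pairs are a description of counting error, with no adjustment for their number. Arc was lower than each of the other genes except Inhba, for which the difference was -0.11 (-1.20 to 0.99). Npas4 was lower than Nptx2, Plk2, Plk3, Arl4d and Ptgs2. Plk2 differed from every gene but Ptgs2, for which the difference was 0.27 (Plk2 minus Ptgs2, -0.07 to 0.62). Plk3, Nptx2, Arl4d and Ptgs2 did not differ from each other beyond counting error, with intervals that still allowed a difference of up to 0.72 on the log2 scale in size (Plk3 minus Ptgs2, -0.72 to 0.09). Inhba differed only from Plk2, by a margin that reached down to 0.05 (Plk2 minus Inhba, 1.15, interval 0.05 to 2.24).

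**Figure D4:**
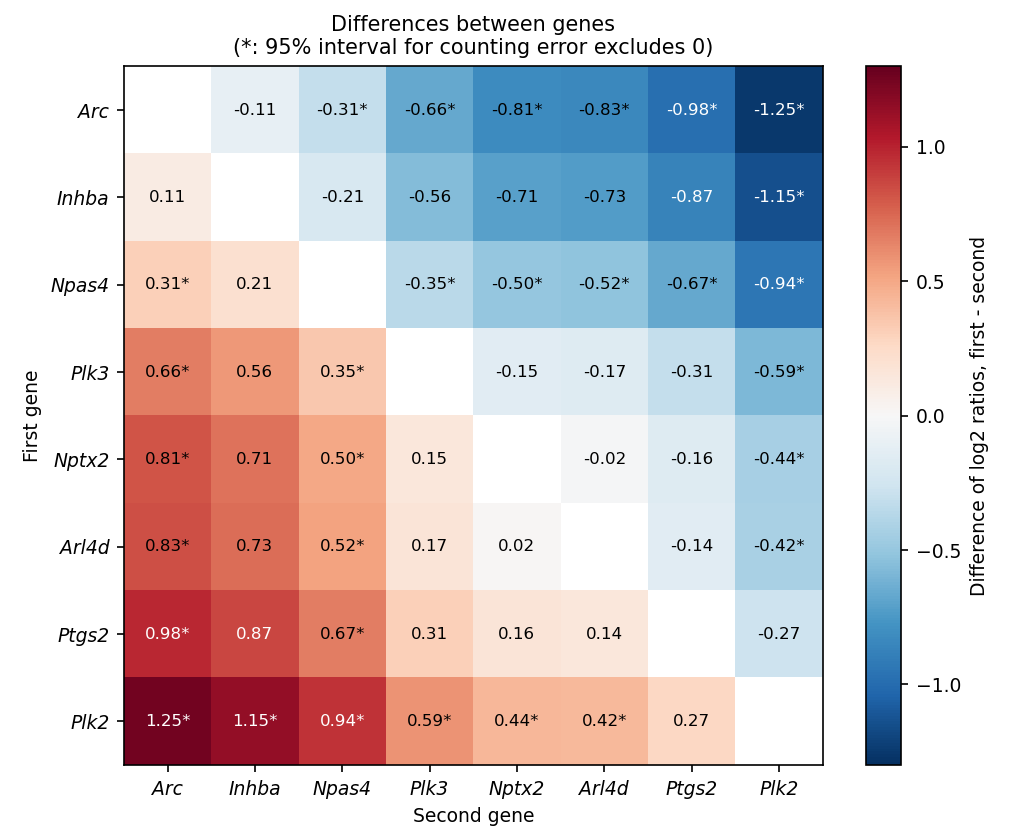
Difference of log2 ratios between each pair of genes (row gene minus column gene), ordered by log2 ratio, with an asterisk where the 95% interval for counting error excludes 0. The rows of Arc and Npas4 and the row of Plk2 hold most asterisks, and the block of Plk3, Nptx2, Arl4d and Ptgs2 holds none.

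Because RPKM is scaled to gene length, the levels can also be added. The 8 genes summed to 337 RPKM in control and 229 RPKM in CUMS, a log2 ratio of -0.56. Arc made up 54.6% of the sum in control and 38.4% in CUMS, and 89.0% of the lower sum came from Arc. Without Arc the sums were 153 and 141 RPKM, a log2 ratio of -0.12. Plk2 offset part of the rest, being higher by 8.98 RPKM, and the 6 genes other than Arc and Plk2 had sums of 88.3 and 67.6 RPKM. The share of Plk2 was 19.2% in control and 32.2% in CUMS.

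Likeness to other genes was measured as the distance over the pair of log2 group means, among genes that reached 0.5 RPKM. With only a pair of points this ranks level and ratio and nothing more. The nearest genes to Arc were Gad1, Sparc and Plekhb1, at distances of 0.328 to 0.428, and their ratios were -0.60, -0.70 and -0.46. Gad1 makes the transmitter GABA, and Sparc encodes a matrix protein. The nearest gene to Npas4 was Sox10, a regulator of oligodendrocytes, at a distance of 0.129. The other genes had nearer neighbors, such as Vapa for Plk2 (0.0122), Gpt2 for Arl4d (0.0167) and Ezr for Nptx2 (0.0248). For Plk3 the nearest was Gm20605 (0.0254), for Inhba E330020D12Rik (0.0362) and for Ptgs2 Spag6 (0.00679).

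The partners and relatives of these genes were examined in 7 lists with 75 genes, of which 71 had at least 0.5 RPKM. Of these, 29 were lower and 42 were higher in CUMS, with a median log2 ratio of 0.03. A fold above 1.5 was passed by 1 gene downward and by 2 upward, against 4.42% and 2.78% of all genes. The partners of Arc and the endocytosis genes (17 genes) had a median of -0.01 with 0 genes past the fold. They ranged from Dnm3, a dynamin, at -0.21 to Camk2a, a kinase of the postsynaptic density, at 0.21. The Npas4 list (7 genes) held Arnt, Arnt2, Arntl, the relatives Npas1, Npas2 and Npas3, and Bdnf as its only target. Its median of 0.09 was the value of Bdnf (-0.19 to 0.37) and does not summarize targets. Arnt lay at -0.22 (-0.37 to -0.07) and Arnt2 at 0.13 (0.08 to 0.18). Arnt2 was the more abundant partner, with 82.1 RPKM in control against 11.9 RPKM for Arnt.

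Of the pentraxin relatives, both lay on the other side of 0 from Nptx2. Nptx1, the constitutive pentraxin, had a log2 ratio of 0.15 (0.11 to 0.20) and the pentraxin receptor Nptxr had 0.47 (0.44 to 0.50). The ratio of Nptx2 was lower than that of Nptx1 by 0.40 (difference -0.40, interval -0.53 to -0.27) and than that of Nptxr by 0.72 (difference -0.72, -0.85 to -0.59). Nptxr was the more abundant, with 219 RPKM in control and 304 RPKM in CUMS. Arl4a had a ratio of 0.20 (-0.00 to 0.40) and Arl4c of 0.00 (-0.14 to 0.14). The difference of Arl4d from Arl4a was -0.43 (-0.71 to -0.15), and that from Arl4c was -0.23 (-0.47 to 0.01). The list of Arl4 and Arf6 genes had a median of 0.01. The fold was passed by 0 of its 7 genes, against 7.2% of all genes in either direction.

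Among polo-like kinases, Plk5, the form of differentiated neurons, had a ratio of 0.21 (-0.06 to 0.50), Plk1 had 0.09 (-0.51 to 0.65) and Plk4 had -0.45 (-1.13 to 0.17). Plk1 and Plk4 act in cell division and were near 1 RPKM, from 0.72 to 1.65 RPKM over both groups. The substrate genes Sipa1l1, Rasgrf1 and Rapgef2 had ratios of -0.10, -0.06 and -0.12. In this list 0 of the 8 genes in the table passed the fold, against 7.2% of all genes in either direction.

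In the activin list (16 genes, median 0.06) 1 gene passed the fold, against 7.2% of all genes in either direction. This was Acvr2b, a receptor that binds activin, with 1.73 RPKM in control and 0.84 RPKM in CUMS (44 and 21 fragments), a log2 ratio of -1.04 (-1.90 to -0.30). The other subunit genes Inhbb and Inha had ratios of 0.12 (-0.22 to 0.47) and 0.14 (-0.04 to 0.31). The transducer Smad3 had 0.23 (0.13 to 0.34), whereas Smad4 had -0.23 (-0.40 to -0.06). In the activin list the interval lay below 0 in 2 genes and above 0 in 2, against 16.8% and 12.5% of all genes. In the prostaglandin list, 11 of 14 genes had at least 0.5 RPKM, with a median of 0.11. Of these, 9 were higher and 2 lower, beside 53.2% lower among all genes. The fold was passed by 2 genes, both upward, against 2.78% of all genes. One was Ptgis, which makes prostacyclin, at 1.23 (0.30 to 2.19, from 15 and 35 fragments). The other was the receptor gene Ptger3 at 0.70 (-0.01 to 1.41, from 29 and 47 fragments). Ptgs1, the constitutive cyclooxygenase, had a ratio of 0.11 (-0.14 to 0.36), which differed from Ptgs2 by less than counting error (Ptgs2 minus Ptgs1, -0.20, -0.61 to 0.21).

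Among genes induced by activity, those for transcription factors were lower together. Of 17 such genes, 16 had at least 0.5 RPKM, and 16 of these were lower in CUMS, with a median log2 ratio of -0.45, beside 53.2% lower among all genes. Past the fold were Fos (-1.06), Ier2 (-0.85), Egr2 (-0.84), Btg2 (-0.76) and Fosb (-0.64), 5 of 16 genes, against 4.42% of all genes. Fos, a part of the AP-1 factor, had nearly the ratio of Arc (Arc minus Fos, -0.00, interval -0.15 to 0.14), and Npas4 lay above Fos by 0.31 (0.12 to 0.49). Earlier results of these data already showed lower immediate early genes, so that this list is no independent evidence of the direction.

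The other activity-induced effectors (20 genes) had a median of -0.18, with 14 lower and 6 higher, beside 53.2% lower among all genes. Past the fold downward were 3 genes, against 4.42% of all genes. These were Cyr61, a matrix protein, at -1.22 (-1.52 to -0.93), the kinase gene Sik1 at -0.77 (-0.96 to -0.58) and Dusp1, a phosphatase that turns off MAP kinases, at -0.72 (-0.87 to -0.58). Homer1, a scaffold of the postsynaptic density, had a ratio of -0.20 (-0.32 to -0.09), close to those of Nptx2 and Arl4d. That value covers the whole gene and does not separate its transcript forms. Vgf and Scg2, which encode secreted peptide precursors, had -0.21 and -0.35. Nrn1, which encodes a membrane protein that promotes growth of dendrites, was highest at 0.28 (0.19 to 0.37) and, like Plk2, lay above 0. Bdnf belongs to this list and to that of Npas4.

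Genes upstream of the response, such as kinases, calcium channels and transcription factors (17 genes), had a median of -0.02. The fold was passed by 0 of them, against 7.2% of all genes in either direction. Creb1, which encodes CREB, had 4.06 RPKM in control and 4.14 RPKM in CUMS, and Srf had 24.7 and 22.3 RPKM. The range ran from Crebbp at -0.34 to Mef2c at 0.34. Their mRNA levels say nothing of the phosphorylation that activates these factors.

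**Figure D5:**
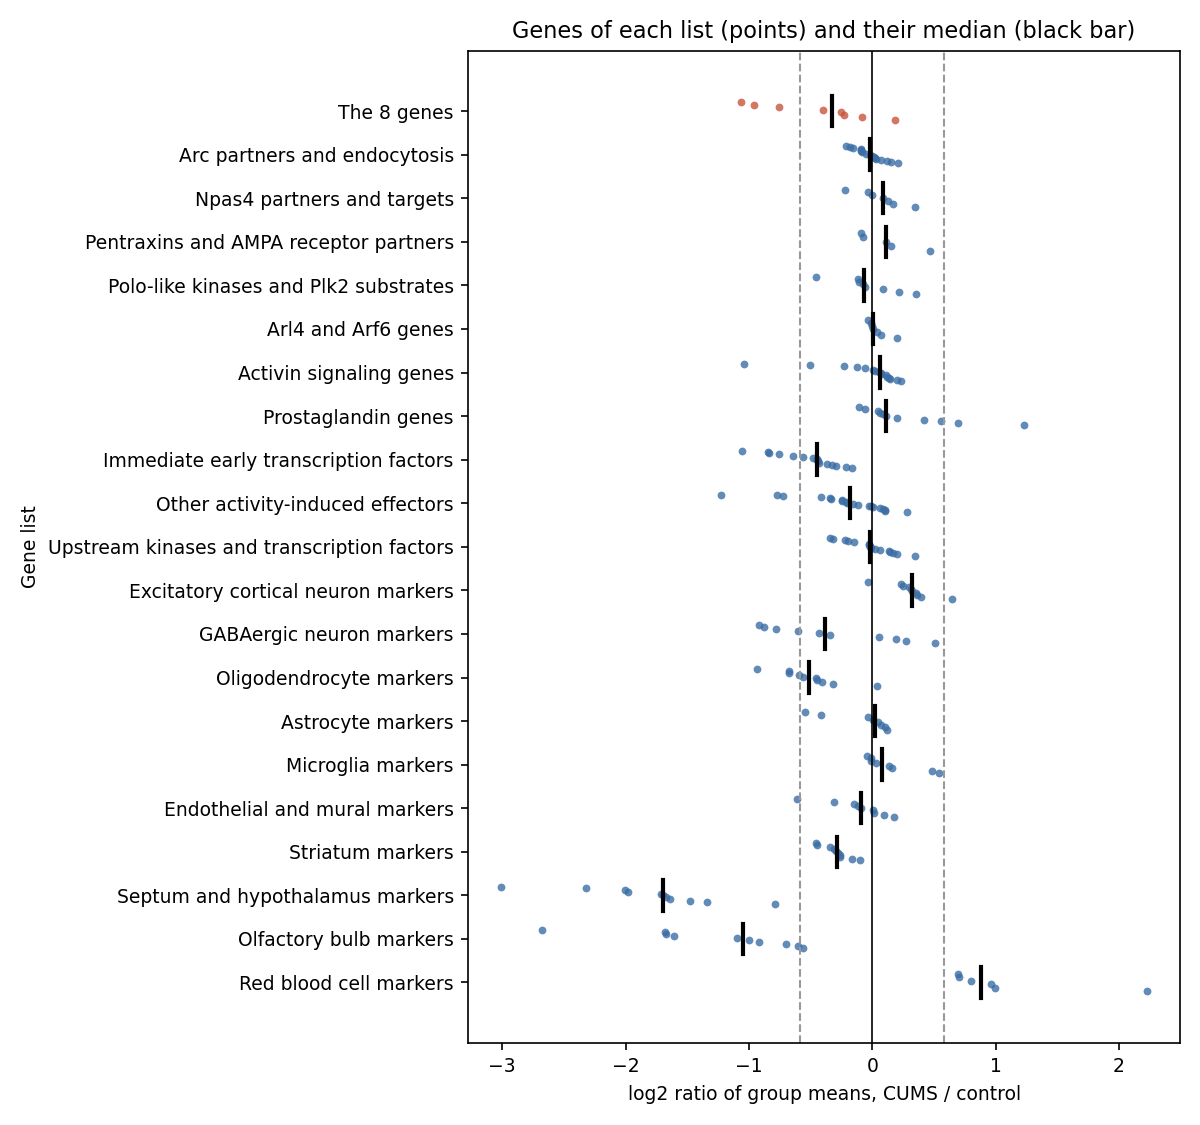
Log2 ratios of CUMS over control for the 8 genes (red) and for each list (blue), over genes that reached 0.5 RPKM, with the list median as a black bar and dashed lines at a 1.5-fold difference. The medians of the 7 lists of partners and relatives lie between -0.07 and 0.11, that of the immediate early transcription factors at -0.45, and those of the septum and hypothalamus and olfactory bulb markers at -1.70 and -1.05.

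Markers of cell types and of neighboring regions were measured beside these genes. Excitatory neurons of the cortex had 10 markers, of which 9 were higher and 1 lower in CUMS, beside 53.2% lower among all genes. The fold was passed upward by 1 of the 10, against 2.78% of all genes. The median of these markers was 0.32, and their summed level 795 RPKM in control and 989 RPKM in CUMS. Slc17a7, the vesicular glutamate transporter that defines them, had 635 RPKM in control and 791 RPKM in CUMS, a log2 ratio of 0.32 (0.29 to 0.34), and the ratio of Plk2 was lower than this by 0.13 (Plk2 minus Slc17a7, -0.13, -0.21 to -0.05). GABAergic neuron markers had a median of -0.39 (6 of 10 lower, beside 53.2% of all genes), with sums of 770 and 685 RPKM. They were split. Gad1 (-0.60), Gad2 (-0.88), Slc32a1 (-0.78) and Calb2 (-0.92) passed the fold downward, 4 of 10, against 4.42% of all genes. Lhx6 (-0.43, -0.63 to -0.23) and Adarb2 (-0.34, -0.69 to 0.001) were also lower. Vip (0.51, 0.31 to 0.71), Npy (0.27, 0.13 to 0.42), Pvalb (0.19, -0.03 to 0.42) and Sst (0.05, -0.02 to 0.13) were higher. The intervals of Adarb2, Pvalb and Sst held 0. The median thus does not describe the list as a whole. Oligodendrocyte markers had a median of -0.51 (9 of 10 lower, beside 53.2% of all genes), with sums of 1965 and 1341 RPKM. The fold was passed downward by 4 of the 10, against 4.42% of all genes.

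Markers of septum and hypothalamus were lower in 11 of 11 genes (median -1.70, sums 127 and 41.4 RPKM), of olfactory bulb in 10 of 10 (median -1.05, sums 99.3 and 51.4 RPKM) and of striatum in 10 of 10 (median -0.29, sums 548 and 451 RPKM). For these and the later counts in this paragraph, 53.2% of all genes were lower. The fold was passed downward by 11 of 11, 9 of 10 and 0 of 10 genes in turn, against 4.42% of all genes. Among the septum and hypothalamus markers, Sim1 was not analysed here, and Avp, with 0.14 RPKM in control and 0.145 RPKM in CUMS, and Hcrt, with 0.24 and 0.465 RPKM, were near 0. Red blood cell markers were higher in 6 of 6 genes (median 0.89, sums 342 and 594 RPKM). The fold was passed upward by 6 of 6, against 2.78% of all genes. Astrocyte, microglia and endothelial markers had medians of 0.03 (3 of 8 lower), 0.08 (3 of 8 lower) and -0.09 (5 of 9 lower), with sums of 546 and 540, 240 and 254, and 126 and 108 RPKM in control and CUMS. Of 8 red blood cell genes, Hbb-bt and Hbb-bs were not analysed here. In each of the 10 marker lists 0 genes of the table were listed at 0.01 RPKM in both groups. Oxt (1.21 RPKM in control and 0.15 RPKM in CUMS) and the olfactory bulb markers Eomes, Tbx21 and Ms4a15 reached 0.5 RPKM in control alone, and Hbb-b2 (0.115 and 0.54 RPKM) in CUMS alone. Most of the septum and hypothalamus markers and of the red blood cell markers, and some of the GABAergic, oligodendrocyte and olfactory bulb markers, are also in the study's own list of changed genes, so that their counts are no independent evidence of direction. The part of these markers in the differences of the 8 genes was not tested.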

How the data were processed

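The authors trimmed the paired reads with SolexaQA, aligned them to the mouse genome mm10 with TopHat 1.0.12 and Bowtie 0.11.3 and used only uniquely aligned reads. They deposited RPKM values averaged over the 2 libraries of each group, and a gene length. The deposited log2 ratio, direction and NOISeq probability are the authors' own comparison and were not used. Annotation and use of strand are not given in the sources used here. Values of 0 appear as 0.01 RPKM.

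Ratios were computed from the deposited means without a pseudocount. The genes tested had at least 0.5 RPKM in either group, and a fold above 1.5 was the call. The study states limits of the same size, but its call also asks for a NOISeq probability, and its filter keeps more genes than the one used here. The depth was estimated from genes shorter than 1000 bases whose product of mean and length was under 350. That product rises in steps of 67.7 (control) or 67.2 (CUMS) RPKM x bases per fragment, and 86.5% and 86.2% of the products were whole to within 0.15 of a step, against 33.5% and 32.4% with shuffled lengths. Intervals are Clopper-Pearson for ratios, exact Poisson for levels and a normal approximation for differences between genes. They cover counting error only and assume equal depth of the libraries in a group. The simulated data on which they were run made the same assumptions, so that neither unequal depth nor spread between mice was tested. Python 3.11.15 and SciPy 1.17.1 were used. Spans come from RefSeq (GRCm38.p6) by gene identifier.

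The 8 genes and all lists were chosen with earlier results of these data known. Named were the 8 genes, their 3 nearest genes, list members past the fold, the ends of a list and family relatives. Further list members (Arc and Npas4 pathway genes, Smad4, activity-induced genes, upstream genes and markers) were named after their values were seen.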

Additional observations from a re-analysis of the deposited data

How the results depend on the processing

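No paired analysis was possible because only a mean per group was given. Fits without each library in turn and a fit with a replicate block were not run either. The number of genes past the fold, 3 at 1.5-fold, was 1 (Arc) at 2-fold and ranged from 2 to 4 under the other 7 alternatives, among them a counting interval wholly past the fold (2, Arc and Npas4) and at least 5 RPKM (2). Setting the median of all log2 ratios to 0 (a shift of 0.015) or the totals equal, and a pseudocount of 0.5 RPKM, left the log2 ratio of each of the 8 genes inside its counting interval in 24 of 24 cases, but the pseudocount took Inhba from -0.96 to -0.53, which ended its 1.5-fold call. The median of the 8 genes, -0.32, was -0.24 without Arc and Npas4. Of 40 values for the other lists, 38 kept their direction, and the 2 that changed sign were near 0. These were the Arc partners after rescaling to a median of 0 (0.000148, from -0.015) and the Npas4 list at 5 RPKM or more (-0.00567, from 0.09). Depth limited Inhba most, with 20 and 10 fragments.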
